A study of Rattus norvegicus with 6 samples.

Results

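The sites described here are those that chromatin immunoprecipitation and sequencing (ChIP-seq) listed in PC12 cells carrying only the empty pCDNA3 vector. PC12 is a cell line from a rat pheochromocytoma, a tumour that arises from the neural crest, and pCDNA3 is a plasmid for expression in mammalian cells. Chromatin of this line was precipitated once with M2, an anti-FLAG antibody, and once with an antibody labelled 1804. The M2 list holds 244 peaks and the 1804 list 272. Peaks of either list that overlapped by at least 1 bp were joined, which left 313 sites. All 4 lists of the series hold 162327 peaks, counted without joining. Of the sites, 203 were held by both lists (64.9%, exact 95% binomial interval 59.3 to 70.1), 41 by the M2 list only (13.1%, 9.57 to 17.3) and 69 by the 1804 list only (22.0%, 17.6 to 27.1).

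The series comprises 6 libraries of PC12 cells at passages 18 to 20, fixed for 10 min in 1% formaldehyde. There were 3 of the empty-vector line (M2, 1804 and an input) and 3 of a line with stable expression of human α1ACT, labelled Q11 (M2, 1804 and an input). The labels give no further treatment of either line. The series' design text instead mentions tissue at day 3. Each group was 1 library, so no difference below has a replicate error and no test of a condition was possible. Intervals cover counting error only, and neighbouring sites are not independent. Read depth is unknown, and no input was analysed here. The labels do not say what 1804 recognises or whether each line is 1 clone.

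ChIP-seq rests on an antibody that enriches the DNA crosslinked to its target. M2 binds the FLAG tag, a short peptide that is fused to a protein of interest and is not a mammalian sequence, so cells with an empty vector serve as the control of what the procedure collects in the absence of the tagged protein. Sites listed in such controls are known, in other work, to gather in repeated DNA and in stretches of a genome assembly that attract an excess of reads. No repeat annotation of the assembly was used here, so this was not tested for these sites. α1ACT is a transcription factor translated from the transcript of the calcium channel gene CACNA1A, and whether empty-vector PC12 cells hold any α1ACT of their own that 1804 might bind was not tested.

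Within each list the authors' signal spread widely. With M2 it ran from 19.0 to 377 around a median of 57.2, and with 1804 from 14.03 to 788 around a median of 44.6. The highest 1804 peak was 17.6 times the median of its list, and the highest M2 peak 6.59 times. The 10 highest peaks carried 21.7% of the summed signal of the 1804 list and 13.9% of that of the M2 list. The sources used here do not give the scaling of the signal, so signals themselves are compared only within a list. Lists are compared by rank, or by ratios and shares taken within each list, which may still depend on the scaling. Every peak was 56 bp wide, and no peak overlapped another of its own list. All 244 and 272 peaks lay on the 21 nuclear chromosomes, apart from 1 M2 peak on the mitochondrial genome.

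Strong sites were shared and weak sites often were not. Ordered by signal, the first 61 M2 peaks included 60 that the 1804 list also held (98.4%, 91.2 to 99.96). The next 61 had 58 (95.1%, 86.3 to 99.0), the third 61 had 45 (73.8%, 60.9 to 84.2) and the last 61 had 40 (65.6%, 52.3 to 77.3). The 1804 list, in steps of 68 peaks, had 67 (98.5%, 92.1 to 99.96), 61 (89.7%, 79.9 to 95.8), 50 (73.5%, 61.4 to 83.5) and 25 (36.8%, 25.4 to 49.3) held by M2. Each of the 50 highest peaks of either list was held by the other, and 36 of them were among the 50 highest of both. Among the 10 highest of each list, 5 were the same.

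**Figure D1:**
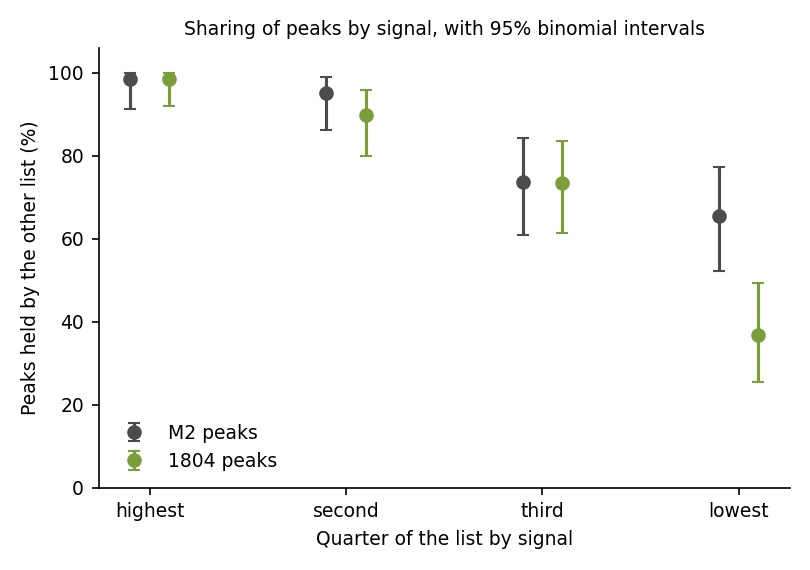
Share of peaks held by the other empty-vector list (%, vertical axis) for 4 equal steps of each list ordered by signal (horizontal axis), with M2 peaks in grey and 1804 peaks in green. Points are shares in 1 library each and bars are exact 95% binomial intervals; the share falls from 98.4% to 65.6% for M2 and from 98.5% to 36.8% for 1804.

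Shared peaks lay at nearly the same base in both lists. Of the 203 pairs, 62 started at the same base (30.5%), 165 started within 3 bp of each other (81.3%) and 192 within 10 bp (94.6%). The median offset was 1 bp and the largest 49 bp. M2 peaks lay to the left in 77 pairs and to the right in 64. Among the 101 pairs of higher M2 signal, 87 were within 3 bp, against 78 of the 102 of lower signal.

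Several of the sites held by 1 list lay next to a peak of the other. Of the 41 sites of the M2 list only, 24 had a 1804 peak within 1000 bp (58.5%, 42.1 to 73.7), and 6 within 100 bp. Of the 69 sites of the 1804 list only, 17 had an M2 peak within 1000 bp (24.6%, 15.1 to 36.5), and 7 within 100 bp. The strongest site of M2 only, on chromosome 1 from 187793486 to 187793541, ranked 61 of 244 with a signal of 118 and was 95 bp from a 1804-only peak at 187793335 to 187793390, which ranked 99 of 272 with 69.5. The strongest site of 1804 only, on chromosome 1 from 264128 to 264183, ranked 62 with a signal of 104, and an M2-only peak of rank 119 lay 30 bp before it. Such neighbours are counted as separate sites by the 1 bp rule.

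Other single-list sites stood alone. For the M2-only peak at 84059631 to 84059686 of chromosome 1 (rank 109, signal 66.8), the nearest 1804 peak was 12912.9 kb away. The M2-only peak of the mitochondrial genome, at 16093 to 16148, ranked 121 with a signal of 57.2. A 1804-only peak on chromosome 3 from 12095543 to 12095598, 32.0 kb before the transcription start site (TSS) of Olfm1, a secreted glycoprotein of neurons, ranked 118 with a signal of 54.5. Another on chromosome 20 from 40336639 to 40336694, with the heat shock factor gene Hsf2 nearest at 337 kb, ranked 127 with 49.4. The 1804 list of the α1ACT line held these peaks of chromosomes 1, 3 and 20. It held 16 of the 41 M2-only sites (39.0%) and 46 of the 69 1804-only sites (66.7%), against 195 of all 313 sites (62.3%). The median signal of single-list sites was 29.3 with M2 and 19.3 with 1804, against 71.8 and 66.5 for shared ones.

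Of the 10 shared sites with the best mean rank over both lists (rank divided by list length), 1 lay within a listed gene and none within 1 kb of a listed transcription start. Over all 312 nuclear sites these shares were 9.94% and 0.641%, so the leading sites did not stand out in this. Gene positions come from the authors' annotated table, which names only genes with an assigned peak of the α1ACT line. First by mean rank was chromosome 7 from 142709079 to 142709135, rank 2 with M2 (signal 330.0) and rank 1 with 1804 (788), 30.3 kb from the TSS of the zinc finger gene Zfp385a. Next came chromosome 2 from 208470940 to 208470995, rank 4 with M2 (303) and rank 2 with 1804 (542), 14.3 kb before the TSS of the RNA-editing gene Adar. Neither was in an α1ACT list, and the nearest α1ACT 1804 peaks were 20.0 and 22.6 kb away.

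The third, on chromosome 9 from 50600834 to 50600892, ranked 8 with M2 (262) and 4 with 1804 (500.3) and lay 48.1 kb from the TSS of Bivm. The fourth lay within Efhb, an EF-hand gene, on chromosome 9 from 45201 to 45259, with ranks 9 (259) and 3 (528). Further leading sites lay 255 kb from Rrn3, an initiation factor of RNA polymerase I (ranks 7 and 7), 56.0 kb from the chaperone gene Hspa4l (12 and 6), 460 kb from Etv1, an ETS transcription factor (13 and 5), 211 kb from Mei4, a gene of meiotic recombination (11 and 9), and 115 kb from the carboxylesterase gene Ces2c (10 and 12). These 7 sites were all in both α1ACT lists. The remaining one of the 10, on chromosome 13 from 38696183 to 38696240 and 686 kb from the translin gene Tsn, led the M2 list (377) and ranked 21 with 1804 (258). It was in neither α1ACT list and was the single one of the 10 with a neighbouring site within 10 kb.

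Sites were spaced in a way that separated neighbours from the rest. There were 291 gaps between neighbouring sites of a chromosome. Of these, 82 were at most 1 kb and 102 at most 3 kb, with a median of 323 bp, and 2 lay between 3 and 10 kb. Another 187 were longer than 10 kb, 147 of them over 1 Mb. Sites with a neighbour within 10 kb are termed clustered here and the others isolated. The gaps just inside this limit were 8854 and 9950 bp, and the first outside it was 13905 bp. By this rule 150 sites (47.9%, 42.3 to 53.6) fell into 46 clusters and 163 were isolated. There were 25 clusters of 2 sites, 10 of 3 and 11 of 4 to 10. Their median span was 0.581 kb and the longest 11.7 kb.

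**Figure D2:**
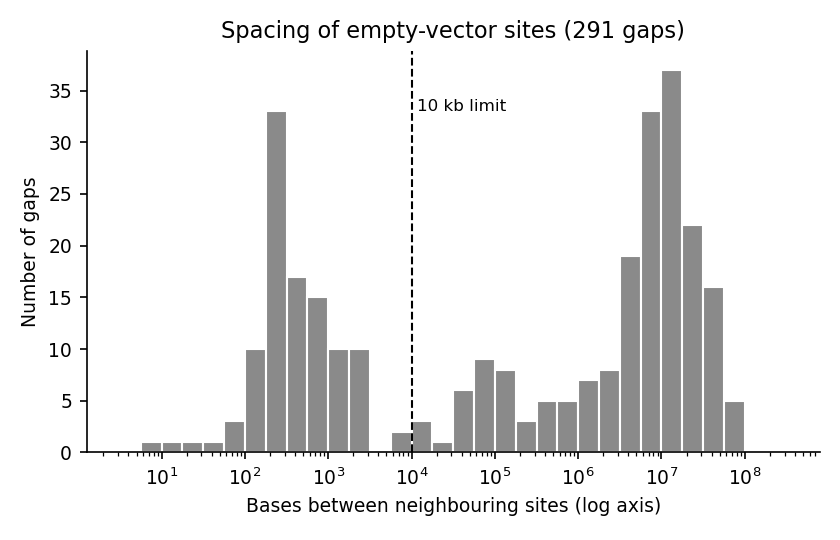
Number of gaps (vertical axis) by the bases between neighbouring empty-vector sites on a chromosome (horizontal axis, log scale), over 291 gaps of both lists joined. The dashed line marks the 10 kb limit; 104 gaps lie to its left and 187 to its right.

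Both antibodies took part in nearly all clusters. In 40 of the 46 at least 1 site was held by both lists, and 43 held peaks of both lists. Clusters were formed on the joined lists, so an M2-only peak beside a 1804-only peak was enough to form a cluster. This rule also counts such single-list sites as clustered. Over the joined lists, clustered sites were shared about as often (98 of 150, 65.3%) as isolated ones (105 of 163, 64.4%). Within each list the order differed. Of sites with an M2 peak, 105 of 115 isolated and 98 of 129 clustered were shared. Of sites with a 1804 peak, 105 of 153 isolated and 98 of 119 clustered were shared. Sites of the M2 list only were clustered in 31 of 41 cases (75.6%, 59.7 to 87.6), shared sites in 98 of 203 (48.3%, 41.2 to 55.4) and sites of the 1804 list only in 21 of 69 (30.4%, 19.9 to 42.7). The intervals of the first and the last do not overlap, but neighbours within a cluster are not independent and the difference was not tested.

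The largest cluster spanned 5.01 kb of chromosome 2 from 552728 to 557741 and had 10 sites, 7 held by both lists, 2 by M2 only and 1 by 1804 only. Its M2 signals ran from 21.5 to 100 and its 1804 signals from 14.3 to 61.3, and the highest site of both lists was the second, at 553099. On chromosome 15, 9 sites lay within 11.7 kb from 53950095 to 53961838, and 7 more within 7.79 kb from 53739457 to 53747243. In these the strongest M2 sites ranked 58 and 63 of 244 and the strongest 1804 sites 90 and 85 of 272. The shortest of the 5 largest clusters was on chromosome 3 from 140711412 to 140713316, with 9 sites in 1.91 kb. It held 4 sites of M2 only, 3 of 1804 only and 2 of both lists, with gaps of 13 to 430 bp, and M2-only and 1804-only sites alternated over its middle. The fifth cluster, on chromosome 17 from 46191686 to 46198609, had 4 shared sites followed by 3 of M2 only.

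**Figure D3:**
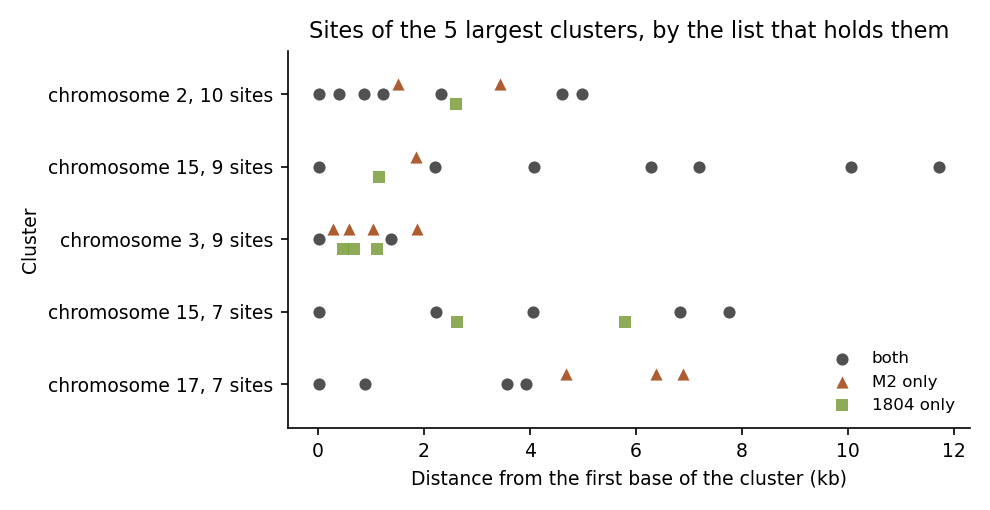
Sites of the 5 largest clusters (rows) by distance from the first base of the cluster in kb (horizontal axis). Circles are sites of both lists, triangles sites of M2 only and squares sites of 1804 only, drawn slightly above and below the row; the chromosome 3 cluster holds 9 sites in 1.91 kb.

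Several clusters lay near each other. With neighbours allowed up to 1 Mb, 29 sites (9.27% of all) formed a region of 730 kb on chromosome 1 from 187623775 to 188353885. It held 12 of the groups formed at 10 kb, with 22 sites of both lists, 4 of M2 only and 3 of 1804 only. The best M2 rank there was 20 and the best 1804 rank 41, and the nearest listed TSS, that of the small GTPase gene Rras2, was 1.65 Mb away. The same linkage gave 16 sites on chromosome 2 from 504313 to 1605347, and 16 on chromosome 15 from 53739457 to 53961838.

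Site numbers per chromosome did not follow length. Chromosome 12 had 16 sites over a covered 54.4 Mb (29.4 per 100 Mb), chromosome 1 had 61 (21.03) and chromosome 15 had 24 (20.9), against 10.8 over all nuclear chromosomes. Chromosome 4 had 7 sites over 248 Mb (2.82 per 100 Mb) and chromosome 5 had 5 over 177 Mb (2.82), and none of these 12 was clustered. When each cluster counted as 1, chromosome 12 remained highest with 16.5 groups per 100 Mb, chromosome 1 had 13.8 and chromosome 4 had 2.82, against 7.17 over all nuclear chromosomes. The first 2 Mb of the chromosomes held 33 of the 312 nuclear sites (10.6%, 7.39 to 14.5) on 1.45% of the covered length, and 2.51% of the α1ACT 1804 peaks. They were on 7 of 21 chromosomes, with 16 on chromosome 2, 6 on chromosome 12 and 5 on chromosome 1. Of those on chromosome 2, 10 formed 1 cluster and 4 another. No share with each cluster counted as 1 was computed for the first 2 Mb.

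The ranks of the shared peaks went together. Spearman's rho between the M2 and 1804 signals was 0.79 over the 203 pairs, which share the cell line and whose peaks are not independent. It was 0.72 over the 101 pairs of higher M2 signal and 0.33 over the 102 of lower signal. A split of the shared sites into isolated and clustered, made after their values were seen, gave rho 0.83 over 105 isolated and 0.91 over 98 clustered sites, both above the value for all.

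The 2 kinds of site were ordered differently by the antibodies. When the 203 shared sites were ranked among themselves in each list, 81 of 105 isolated sites ranked better with 1804 (77.1%, 67.9 to 84.8), and 11 of 98 clustered sites did (11.22%, 5.74 to 19.2). Among the 50 best, isolated sites numbered 33 with M2 and 44 with 1804, and clustered sites 17 and 6. In the 1804 list the median signal of isolated shared sites was 96.6 and that of clustered ones 41.4, a ratio of 2.33, and in the M2 list 88.3 and 65.5, a ratio of 1.35.

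The same order was seen at like M2 ranks. Of the sites in the first of 4 steps by M2 rank, the 33 isolated had a median M2 rank of 24 and a median 1804 rank of 18, and the 17 clustered had medians of 27 and 55. All 17 of these clustered sites ranked worse with 1804, by 12 to 62 places. In the third step the 16 isolated sites went from a median rank of 130.5 to 88 and the 35 clustered from 124 to 156. In the fourth the 30 isolated sites went from 174.5 to 134 and the 21 clustered from 183 to 188, with 14 of the 21 ranked worse with 1804. With 1 library of each antibody, an effect of the antibody cannot be told apart from one of the library.

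**Figure D4:**
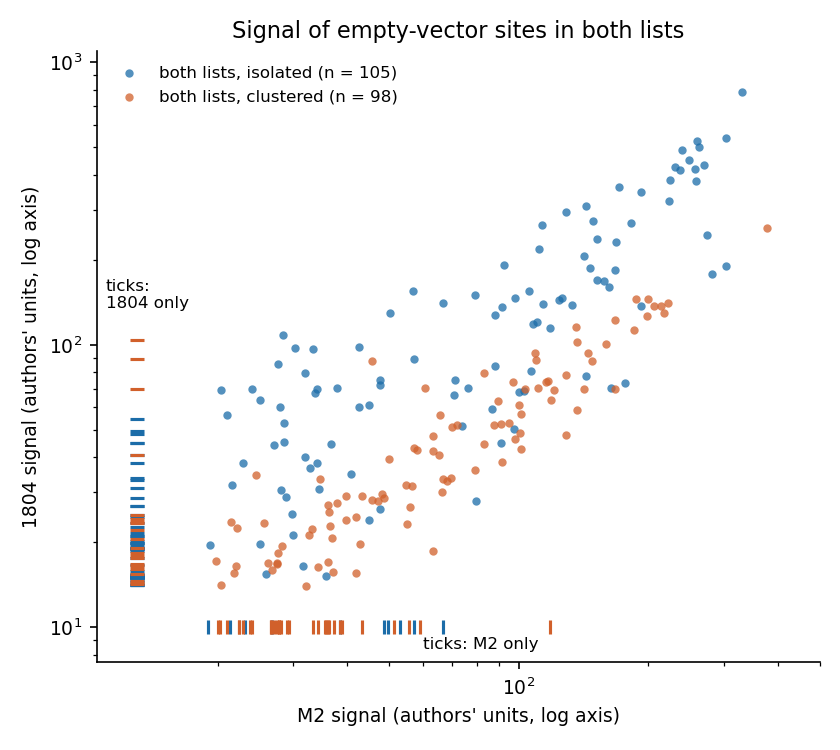
Authors' signal with M2 (horizontal axis, log scale) and with 1804 (vertical axis, log scale) for each shared empty-vector site, with 105 isolated sites in blue and 98 clustered sites in orange. Ticks along the axes are sites of 1 list, and at like M2 signal most clustered sites lie below most isolated ones.

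The 5 shared sites that 1804 ranked furthest above M2 were all isolated. They lay within Map2k6, a kinase of the p38 pathway (chromosome 10 from 98434508 to 98434567, rank 238 of 244 with M2 and 101 of 272 with 1804, signals 20.4 and 69.2), 27.2 kb before Rnase10 (198 and 61), within the transmembrane protein gene Tmeff1 (206 and 75), 260 kb from Ppargc1a, a transcriptional coactivator of energy metabolism (222 and 96), and within Tns3, a tensin of focal adhesions (237 and 116). Of the 5 that M2 ranked furthest above 1804, 4 were clustered. First was a site of the 7-site cluster on chromosome 17, from 46192551 to 46192608 and 314 kb from Zfp322a (115 with M2 and 227 with 1804, signals 63.4 and 18.6). The exception, isolated on chromosome X from 14148899 to 14148956 and 81.1 kb before Tspan7, a tetraspanin gene, ranked 98 and 178.

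The lowest M2 peak, on chromosome 19 from 68035611 to 68035666, was held by M2 only with a signal of 19.0 and lay 11.5 kb before the calpain gene Capn9. The next, 2.14 kb before the Fc receptor gene Fcgr2a on chromosome 13, had 19.2 and was shared, with 19.5 and rank 218 in the 1804 list. The lowest 1804 peak, with 14.03, was a shared site of the 5-site cluster on chromosome 6, from 149334379 to 149334436, which ranked 186 with M2 (32.1).

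Few sites lay in genes. Of 312 nuclear sites, 31 were inside a listed gene (9.94%, 6.85 to 13.8), where listed genes took up 24.0% of the covered length and held 21.7% of the α1ACT 1804 peaks. All 31 were isolated: 31 of 162 isolated nuclear sites (19.1%, 13.4 to 26.0) and 0 of 150 clustered sites. The count of 0 would allow a share of up to 2.0% if sites were independent, but these 150 come from 46 clusters. The median distance to a listed TSS was 102 kb for isolated and 415 kb for clustered sites, against 122 kb for the α1ACT 1804 list. Over 500 kb from any listed TSS lay 69 of 150 clustered sites (46.0%, 37.8 to 54.3) and 21 of 162 isolated ones (12.96%, 8.21 to 19.1). The table does not name genes without an assigned α1ACT peak, so sites in such genes were counted as outside. Because α1ACT peaks chose the listed genes, the shares and distances of the α1ACT 1804 list are favoured in these comparisons. They are therefore not an even background for the empty-vector sites.

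The 31 sites lay in 31 different genes, 21 of them at sites of both lists, 9 of 1804 only and 1 of M2 only. Their median length was 114 kb, against 18.0 kb for all 14390 listed genes; long genes offer more bases for a site, and no value weighted by length was computed. The names in this paragraph that the rule for named genes did not give were chosen after their values were seen. Hs3st5, a heparan sulfate sulfotransferase, held the third M2 peak (chromosome 20 from 42152370 to 42152425, signal 303), which ranked 28 with 1804 (190.0). Mtmr7, a lipid phosphatase of the myotubularin family, held a site of rank 53 with M2 and 17 with 1804 (129 and 295). Cacna2d3, an auxiliary subunit of voltage-gated calcium channels, held one of rank 66 and 25 (112 and 219).

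Further genes, also chosen after their values were seen, are given with their ranks. Ppp2r2b, a regulatory subunit of protein phosphatase 2A, had ranks 33 and 30 (167 and 185), and Ppp3ca, the catalytic subunit of calcineurin, 104 and 83 (71.0 and 75.2). Klhl6, a kelch protein of B cells, had 64 and 45, and Parva, an actin-binding protein of adhesions, 92 and 53. Genes with a site of 1804 only included Gria4, a subunit of AMPA glutamate receptors (rank 144, signal 40.7), Dpysl5, a collapsin response mediator (rank 187, signal 25) and the semaphorin gene Sema3e (rank 232, signal 17.6). One site was assigned to Vom2r4, whose listed model spans 914 kb. The site was 443 kb from the TSS of that model, so this assignment is uncertain. The gene has many near copies, and whether reads were split between them was not tested.

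Near a TSS, sites were few with both antibodies, but the interval of their share within 1 kb includes the share of the covered length. Within 1 kb of a listed TSS lay 2 of 312 nuclear sites (0.641%, 0.0777 to 2.30), where 0.998% of the covered length and 5.71% of the α1ACT 1804 peaks lay. The α1ACT share may again be raised by the choice of listed genes. The 2 nuclear sites were isolated and of the 1804 list only. Of the 203 shared sites 0 did, which allows up to 1.48%, and of 40 nuclear sites of M2 only 0, which allows up to 7.5%. One lay on chromosome 20 from 24545238 to 24545293, 31 bp before the TSS of Ado, a thiol dioxygenase gene, with a signal of 15.1 and rank 257 of 272. It was thus among the weakest peaks of the 1804 list.

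The sequence before the TSS of Ado is shown because it is the promoter nearest to any of the sites. The 250 bases upstream are given from RefSeq on GRCr8 (chr20:21043444-21043693, plus strand). The peak itself was placed on the older build rn5, whose sequence was not used here, so its position within this stretch is not marked. Capitals mark CG dinucleotides, the sites of CpG methylation.
Ado: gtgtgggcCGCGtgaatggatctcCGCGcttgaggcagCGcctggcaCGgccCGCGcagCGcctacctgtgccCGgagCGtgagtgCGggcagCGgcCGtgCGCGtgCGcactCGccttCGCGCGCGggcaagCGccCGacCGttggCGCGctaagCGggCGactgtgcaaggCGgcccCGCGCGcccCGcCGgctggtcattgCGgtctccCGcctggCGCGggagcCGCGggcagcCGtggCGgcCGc
This stretch holds 44 CG dinucleotides and is 78.0% G or C. Over 33469 RefSeq promoters the medians were 5 and 51.2%, and 99.5% of them had fewer CG dinucleotides. These are a description of 1 promoter and not of the sites.

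Lists of genes of interest in these cells were nearly free of sites. They were chosen with earlier results of these data known. Of 14390 listed genes, 122 (0.848%) had a site inside or within 50 kb. Among the chromaffin and sympathetic genes, such as the catecholamine enzymes Th and Dbh, 0 of 27 listed had one, and among α1ACT targets reported earlier and the host gene (Btg1, Grn, Atp2b2 and Cacna1a) 0 of 4. Glial, immune and liver genes, as markers of other cell types, had 0 of 15. Of the immediate early genes 1 of 27 did: Egr2, a zinc finger factor, 6.64 kb from the Ado site. At a background of 0.848%, lists of this length would hold few or none, and a peak list does not measure expression, so the cell type was not checked by these counts.

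Isolated and clustered sites differed in their presence in the α1ACT line, a comparison made after the values were seen. The α1ACT 1804 list held 146 of 163 isolated sites (89.6%, 83.8 to 93.8) and 49 of 150 clustered sites (32.7%, 25.2 to 40.8). Its peaks cover 0.312% of the same length. By size, it held 34 of 50 sites in clusters of 2 (68.0%, 53.3 to 80.5), 15 of 42 in clusters of 3 or 4 (35.7%, 21.6 to 52.0) and 0 of 58 in clusters of 5 or more. The last count would allow up to 5.17% if sites were independent, but these 58 come from only 8 clusters. In each of the 11 clusters of 4 or more sites, the span itself held no peak of the 161730 in that list. The nearest such peak was 48.2 kb from the chromosome 2 cluster of 10, and 12.0, 9.41, 0.994 and 71.0 kb from the other 4 of the 5 largest clusters.

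The α1ACT M2 list was far shorter, with 81 peaks, and gave the same order: 56 of 163 isolated sites (34.4%, 27.1 to 42.2), 17 of 150 clustered sites (11.3%, 6.74 to 17.5) and 0 of 58 in clusters of 5 or more. Signal moved with the kind of site, so the shares were also taken by steps of the 1804 list. In the highest of 4 steps the α1ACT 1804 list held 50 of 53 isolated (94.3%) and 8 of 15 clustered sites (53.3%), in the second 34 of 36 and 13 of 32, in the third 26 of 27 and 16 of 41, and in the lowest 28 of 37 and 4 of 31. All 46 clusters were present in it either fully (18), in part (8) or not at all (20). The lines differ in their libraries as well as in α1ACT, with 1 library each, so these cannot be told apart.

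**Figure D5:**
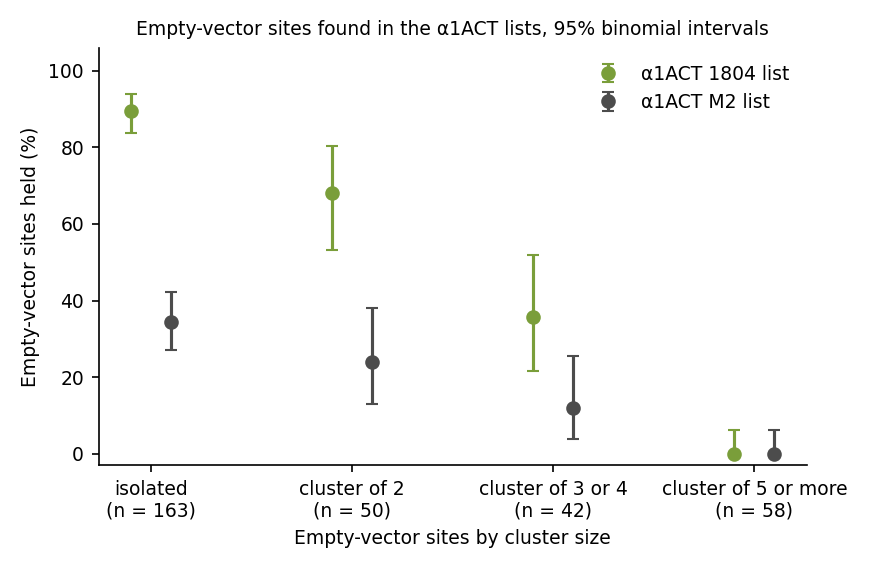
Share of empty-vector sites that the α1ACT lists hold (%, vertical axis) by the size of the cluster an empty-vector site lies in (horizontal axis), with the α1ACT 1804 list in green and the α1ACT M2 list in grey. Points are shares in 1 library each and bars are exact 95% binomial intervals; the share in the 1804 list is 89.6% for isolated sites and 0 of 58 for clusters of 5 or more.

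Where held, isolated sites were among the strongest peaks of the α1ACT 1804 list: the median rank of the 146 was 89.5 of 161730, and 138 were in its highest 1%. The 49 clustered sites it held had a median rank of 128, and 43 were in that 1%. Of the 17 isolated sites it lacked, 2 were the leading sites near Zfp385a and Adar. The Ado site was present, with an α1ACT 1804 signal of 2.55 and rank 121278.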

How the data were processed

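Peak lists of 4 precipitated libraries were analysed. The authors deposited them as narrowPeak columns, with their own signal in column 7 and a −log10 q-value in column 9; the p column is not filled. The deposited names carry the tag spp, a peak caller; no source used here gives its settings or control. The lowest deposited −log10 q-value was 1.32 (M2) and 1.30 (1804), and 102 and 83 peaks shared the highest, 2.31 and 2.22. Per the submitters' processing notes the build is rn5 and the tools include BWA 0.7.5a, FastQC 0.11.2, DiffBind, ChIPseeker and HOMER, with no roles. Gene positions are from the deposited annotated table of α1ACT-only peaks (14852 transcript models).

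Coordinates were made 1-based. Overlap (1 bp), gaps, clusters (10 kb), ranks and gene distances were computed in Python 3.11.15 with pandas 2.3.3 and SciPy 1.17.1 and tested on simulated lists. Covered length is the highest peak end per chromosome in any list. Intervals are Clopper-Pearson at 95%; a count of 0 is bounded by 3 counts.

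Members and lists were chosen with earlier results of these data known. Named sites are the 10 of best mean rank, the 5 strongest of each list only, the 5 largest rank differences each way, the 3 lowest of each list, the 5 largest clusters and all within 1 kb of a TSS, with the gene that holds each or the nearest. Some sites so selected are not reported here. Alternatives were other overlap, signal, distance and merging rules.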

Additional observations from a re-analysis of the deposited data

How the results depend on the processing

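Over 54 alternative settings for 10 results, 37 values stayed within the interval of the reported value and 17 moved beyond it. M2 peaks in the 1804 list rose from 83.2% to 93.0% when gaps up to 1000 bp counted as shared and to 90.1% when peaks within 1000 bp were first merged. For 1804 peaks in the M2 list the 74.6% became 80.9% with such gaps and 79.9% with lists of equal length. The M2 share was then also 79.9%. This equality was fixed by the setting, because each shared peak had 1 partner and the lists had the same length. The Spearman correlation over shared peaks was 0.61 by the q-value column, which holds many ties. The share of clustered sites was 42.2% at 1 kb, 57.2% at 1 Mb and 39.7% in the 1804 list alone. The share inside genes was 14.1% with genes extended by 10 kb and 14.9% with 1 value per cluster. Near a TSS it was 5.13% within 10 kb, where 9.31% of the covered length lay, and 0% among sites of both lists. Of alternatives chosen after seeing the data, the share of clustered sites in the α1ACT 1804 list was 68.0% in clusters of 2, 15.0% in clusters of 3 or more and 22.8% without chromosome 1, and that of isolated sites 81.8% with clusters at 1 kb and 95.7% with gaps up to 1000 bp. The split of ranks between isolated and clustered sites stayed within its interval at 1 kb, at 100 kb and without chromosome 1. No paired analysis was possible because each group holds 1 library. Read depth is unknown, so a site missing from a list may lie below its limit.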
